A study of Mus musculus with 6 samples.

Results

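The genes of cholesterol and fatty acid synthesis were followed in mouse small intestinal organoids, epithelial cultures derived from the intestinal lining and kept in a gel. The group was a list of 35 genes given by name, out of 55416 gene identifiers in the tables. It comprised 18 genes of sterol synthesis (the sterol arm, Acat2 to Dhcr7), 7 of fatty acid synthesis (the fatty acid arm, Acly to Scd2), 5 regulators that sense sterols, and 5 genes of sterol transport and esterification. All 35 had enough reads to be tested, with at least 525 expected counts in every library. RNA-seq had been made from 3 groups of 2 libraries: organoids without doxycycline (control), and organoids given 0.1 µg/ml (the lower dose) or 0.5 µg/ml (the higher dose) of doxycycline for 3 days. Every group, control included, came from mice of 4 to 8 weeks that were homozygous (Tg/Tg) for Rosa26-rtTA, a transactivator that binds DNA when doxycycline is present, and for Col1A1-TetO-OSKM, which carries Oct4, Sox2, Klf4 and Myc under a doxycycline-responsive promoter. Doxycycline was therefore both the drug and the inducer, and no group received it without carrying the factors. The sources used here call the 2 libraries biological replicates and do not say whether they came from separate mice or cultures, so p-values measure only the spread between these samples.

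Library totals ran from 45289760 to 72547738 expected counts, and the lowest and highest normalization factors were 0.964 and 1.036. Pou5f1, which encodes Oct4, stood at 0.243 and 0.140 CPM (the share of a library's counts, scaled between libraries) in control, 136 and 141 CPM at 0.1 µg/ml, and 486 and 512 CPM at 0.5 µg/ml. Reads assigned to Pou5f1 were thus ordered by the dose in the labels, without overlap. Transgene and endogenous reads were not told apart. Markers of other tissues were low, and some were higher at 0.5 µg/ml. Col3a1, Cdh5, Kdr and Cldn5 were listed at 0 TPM (the share of transcripts, a level per length) in all 6 libraries, as rounded in the deposited table. Summed over 7 fibroblast markers the level was 0.26 and 0.40 TPM in control, 0.40 and 0.26 TPM at 0.1 µg/ml and 1.52 and 1.98 TPM at 0.5 µg/ml. The 7 immune markers summed to 3.54 and 3.10 TPM in control, 5.52 and 6.25 TPM at 0.1 µg/ml and 14.8 and 14.7 TPM at 0.5 µg/ml. The 6 endothelial markers summed to 0.23 and 0.37 TPM in control, 0.63 and 0.65 TPM at 0.1 µg/ml and 1.41 and 1.26 TPM at 0.5 µg/ml. Of the 7 of these markers with enough reads to test, Cd68, Ptprc, Dcn, Tek and Vwf were called higher and Itgam and Pdgfrb lower at 0.5 µg/ml (edgeR, adjusted p under 0.05), and Cd68 held most of the immune sum. In that comparison 67.5% of all tested genes were called. The part of these markers in the values below was not tested.

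Cholesterol is built from acetyl units through mevalonate, then squalene, then lanosterol and a series of reductions and rearrangements. Its genes are the classic targets of SREBP transcription factors, membrane proteins that the escort Scap carries to the Golgi for cleavage when sterols are low, and that Insig proteins hold back when sterols are high. The protein of Srebf2 acts mainly on sterol genes and that of Srebf1 mainly on fatty acid genes. In the small intestine, absorptive cells also take up cholesterol through Npc1l1, esterify it with Soat2 and pump plant and excess sterols back to the lumen with the Abcg5 and Abcg8 pair.

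These 5 stretches upstream of genes are shown because the genes come back in the results: Hmgcs1 holds the sterol regulatory motif, Lss and Msmo1 lie in the same pathway and differed in direction, Ebp was higher at both doses, and Abcg5 and Abcg8 share a start region. Hmgcs1 was chosen by its motif, and the others after their values were seen. Sequences are from RefSeq on GRCm38.p6, given 5′ to 3′ in the direction of the gene, and end at the base before the annotated start. They cover chr13:119690171-119690350 (+ strand) for Hmgcs1, chr10:76531425-76531604 (+) for Lss, chr8:64733579-64733758 (−) for Msmo1 and chrX:8193513-8193692 (−) for Ebp. In these 4, capitals mark CCAAT in either orientation (CCAAT or ATTGG) and, in Hmgcs1, also the sterol regulatory motif.
Hmgcs1: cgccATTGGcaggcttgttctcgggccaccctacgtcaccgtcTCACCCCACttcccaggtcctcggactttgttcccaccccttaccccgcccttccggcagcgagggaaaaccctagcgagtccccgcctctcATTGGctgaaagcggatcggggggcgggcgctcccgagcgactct
Lss: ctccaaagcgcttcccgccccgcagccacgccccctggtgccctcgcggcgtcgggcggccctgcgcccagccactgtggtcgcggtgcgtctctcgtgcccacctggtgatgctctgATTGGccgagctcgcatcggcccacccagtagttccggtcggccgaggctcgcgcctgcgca
Msmo1: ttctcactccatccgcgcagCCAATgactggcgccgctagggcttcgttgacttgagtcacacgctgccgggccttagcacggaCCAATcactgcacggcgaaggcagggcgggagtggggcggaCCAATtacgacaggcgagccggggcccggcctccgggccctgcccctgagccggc
Ebp: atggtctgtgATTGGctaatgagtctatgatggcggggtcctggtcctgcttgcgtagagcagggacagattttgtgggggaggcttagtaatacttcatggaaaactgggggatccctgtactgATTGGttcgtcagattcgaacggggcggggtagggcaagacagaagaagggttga

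Abcg5 and Abcg8 lie head to head on chromosome 17, with annotated starts at base 84683011 on the − strand and base 84683121 on the + strand. The 109 bases between them, chr17:84683012-84683120 on the + strand, are shown with capitals on both matches to AGATAA, which read TTATCT on this strand.
Abcg5-Abcg8: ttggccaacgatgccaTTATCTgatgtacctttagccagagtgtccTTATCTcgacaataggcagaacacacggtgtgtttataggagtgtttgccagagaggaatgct

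Windows of 250 bases before the start were held for 28 of the 35 genes, with 37 windows in all. There was no entry for Fdps, Fdft1, Sqle, Stard4, Soat2, Scd1 and Scd2. CCAAT, searched on both strands, was found in 14 of 15 sterol arm genes (93.3%), 2 of 5 fatty acid arm genes (40%) and 6 of 8 regulators and transport genes (75%), against 37.5% of all 27025 genes in the table and 39.5% of protein-coding genes. The GC box GGGCGG was in 14 of 15 sterol arm genes (93.3%), 2 of 5 fatty acid arm genes (40%) and 5 of 8 others (62.5%), against 35.4% of all genes and 45.8% of protein-coding genes. A gene was counted if any of its windows matched, and some genes had several. By window, CCAAT was in 77.8%, 40% and 50% in the same order, against 33.8% of all windows. The GC box was in 83.3%, 40% and 50%, against 32.7%. The sterol regulatory motif TCACNCCAC was in 1 of 15 sterol arm genes, Hmgcs1, in none of the other 13 genes, and in 1.22% of all genes. CACGTG was in 3 of 15, 0 of 5 and 2 of 8 genes in the same order, against 6.86%, AGATAA in 0 of 15, 0 of 5 and 2 of 8, the Abcg5 and Abcg8 pair, against 11.4%, CAAGGTCA in 1 of 15 and no other, against 1.51%, and CAAAGTCCA in none, against 0.451%. The windows of Abcg5 and Abcg8 overlap, so both AGATAA matches between their starts were counted for each gene. A further match was counted for Abcg8 alone. No match of one motif overlapped a match of another in these windows. A match is a description of the letters only.

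At 0.5 µg/ml against control, 11 of the 35 genes were higher, 18 were lower and 6 were not called (two-sided quasi-likelihood test in edgeR, with p-values adjusted by Benjamini-Hochberg over all 16975 tested genes and a threshold of 0.05). Those 29 calls are 82.9% of the genes, where 67.5% of all tested genes were called, 34.4% higher and 33.1% lower. The changes were small: the median absolute log2 fold change was 0.38, against 0.49 for all tested genes, and only 4 genes (11.4%) were called and changed at least 2-fold, against 27.1% of tested genes. Those 4 were Npc1l1, Abcg5, Abcg8 and Soat2, all lower and all in sterol transport and esterification. No synthesis gene of either arm reached 2-fold. Every member had at least 525 expected counts in each library, while the tested genes include some at 0 counts in control, such as Dcn. Here and in the other comparisons, the shares and medians over all tested genes were not matched for level. On the TPM scale, tested with limma, the split was 7 higher and 20 lower, beside 3565 higher and 4883 lower of all genes in that fit. In bulk samples, fewer cells of a type and less RNA per cell cannot be told apart.

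**Figure D1:**
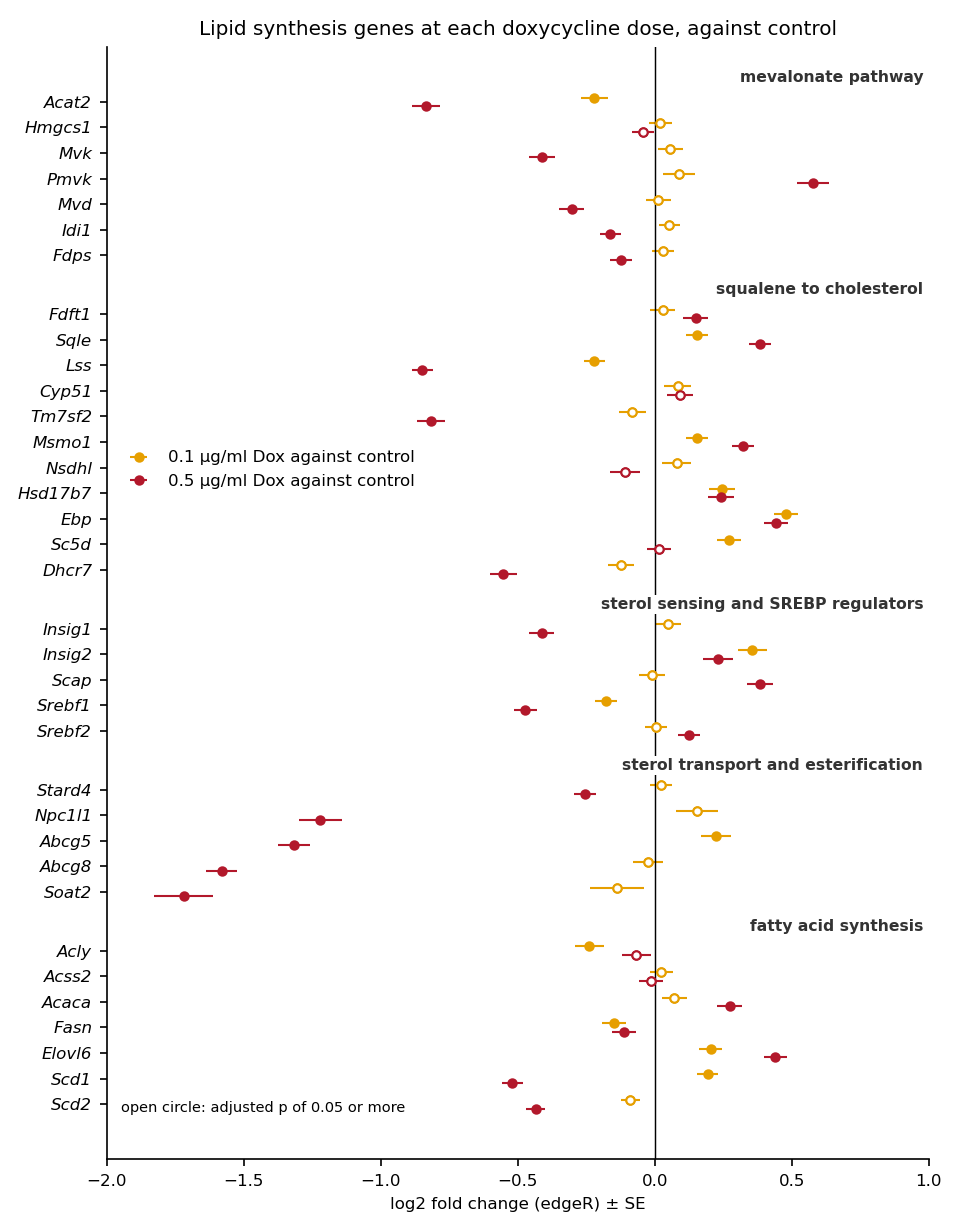
Log2 fold change of each of the 35 genes against control (edgeR, bars are ± 1 SE) at 0.1 and 0.5 µg/ml doxycycline, ordered by role. Filled circles passed an adjusted p of 0.05 and open circles did not. The 4 lowest points at 0.5 µg/ml, from −1.22 to −1.72, are Npc1l1, Abcg5, Abcg8 and Soat2, and synthesis genes lie between −0.85 and 0.58.

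The mevalonate genes carry acetyl units to farnesyl diphosphate. Of these 7 genes, 5 were lower at 0.5 µg/ml, 1 was higher and 1 was not called. The called share was 85.7%, against 67.5% of all tested genes. Acat2 (ENSMUSG00000023832), the cytosolic thiolase that joins the first acetyl units, stood at 210 and 199 CPM in control, 169 and 182 CPM at 0.1 µg/ml and 115 and 114 CPM at 0.5 µg/ml. The 3 groups did not overlap and were ordered by dose. Its log2 fold change at 0.5 µg/ml was −0.83 ± 0.05 (SE, edgeR adjusted p = 3.12e-07), a 1.78-fold lower level. Acat2 has a close paralog, Acat3, with which reads may be shared. Pmvk (ENSMUSG00000027952), phosphomevalonate kinase, was the member that went the other way. It stood at 62.8 and 58.4 CPM in control, 63.6 and 65.4 CPM at 0.1 µg/ml and 86.0 and 94.8 CPM at 0.5 µg/ml, so that both libraries of the higher dose lay above the other 4. The log2 fold change was 0.58 ± 0.06 (SE, edgeR adjusted p = 1.31e-05).

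The enzymes on either side of Pmvk were lower. Mvk, mevalonate kinase, had 31.4 and 33.0 CPM at 0.5 µg/ml, against 43.1 and 42.6 CPM in control, and Mvd, the decarboxylase, had 67.4 and 70.8 CPM against 87.1 and 83.6 CPM. Their log2 fold changes were −0.41 and −0.30 (edgeR adjusted p = 3.47e-05 and 2.71e-04). Idi1, the isomerase, and Fdps, farnesyl diphosphate synthase, differed less, by −0.16 and −0.12 (edgeR adjusted p = 0.00411 and 0.0225). The Fdps call was lost without the first library of control or of 0.5 µg/ml, and Fdps shares 26.7% of its annotated exon bases with a gene model on the same strand, so its counts are uncertain. Hmgcs1, whose enzyme condenses the next acetyl unit and whose upstream stretch holds the sterol regulatory motif, was not called: it had 447 and 469 CPM at 0.5 µg/ml and 469.5 and 474 CPM in control (log2 fold change −0.04 ± 0.04 SE, edgeR adjusted p = 0.380).

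From squalene to cholesterol, 5 of 11 genes were higher at 0.5 µg/ml, 3 were lower and 3 were not called. That is 72.7% called, against 67.5% of all tested genes. Genes of successive steps went in opposite directions. Sqle (ENSMUSG00000022351), squalene epoxidase, a rate-limiting step, stood at 219 and 221 CPM in control, 240 and 249.6 CPM at 0.1 µg/ml and 289 and 285 CPM at 0.5 µg/ml. Lss (ENSMUSG00000033105), lanosterol synthase, which takes the product of squalene epoxidase, stood at 242 and 244 CPM in control, 207 and 210.1 CPM at 0.1 µg/ml and 134.8 and 134.9 CPM at 0.5 µg/ml. In both genes the doses were ordered without overlap, upward for Sqle and downward for Lss. The log2 fold changes at 0.5 µg/ml were 0.38 ± 0.04 for Sqle and −0.85 ± 0.04 for Lss (SE, edgeR adjusted p = 1.58e-05 and 3.83e-08). Per length, Sqle over Lss was 1.06 and 1.08 in control, then 1.32 in both libraries at the lower dose and 2.25 and 2.41 at the higher dose, as ratios of TPM.

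Of the post-lanosterol genes, Msmo1, the sterol methyl oxidase, stood at 235 and 226 CPM in control, 254 and 259 CPM at 0.1 µg/ml and 286 and 291 CPM at 0.5 µg/ml. It was higher in every library of each dose than in both control libraries (log2 fold change at 0.5 µg/ml 0.32 ± 0.04 SE, edgeR adjusted p = 6.29e-05). Dhcr7 (ENSMUSG00000058454), the reductase of the last step of one branch of the pathway, stood at 154 and 146.5 CPM in control, 135 and 141 CPM at 0.1 µg/ml and 99.5 and 105 CPM at 0.5 µg/ml. Its log2 fold change at 0.5 µg/ml was −0.55 ± 0.05 (SE, edgeR adjusted p = 4.25e-06). The TPM ratio of Msmo1 to Dhcr7 was 1.72 in both control libraries, then 2.14 and 2.06 at the lower dose and 3.36 and 3.19 at the higher dose. Tm7sf2, a sterol reductase of the endoplasmic reticulum, was also lower, at 33.9 and 32.7 CPM at 0.5 µg/ml against 59.3 and 57.7 CPM in control (log2 fold change −0.82 ± 0.05 SE, edgeR adjusted p = 4.07e-07). Tm7sf2 shares 12.1% of its exon bases with Vps51 on the same strand.

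Ebp (ENSMUSG00000031168), the sterol isomerase, was higher at both doses. It stood at 82.8 and 79.6 CPM in control, 111 and 115.5 CPM at 0.1 µg/ml and 111 and 109.8 CPM at 0.5 µg/ml. The libraries of the 2 doses overlapped each other and not the control, with log2 fold changes of 0.44 ± 0.04 at 0.5 µg/ml and 0.48 ± 0.04 at 0.1 µg/ml (SE, edgeR adjusted p = 1.25e-05 and 3.06e-05). Hsd17b7, a keto-reductase of sterol demethylation, was also higher at both, with a log2 fold change of 0.24 at each (edgeR adjusted p = 0.00119 at 0.5 µg/ml and 0.00299 at 0.1 µg/ml). Sc5d, the sterol desaturase, had 126 and 119 CPM in control, 147 and 149 CPM at 0.1 µg/ml and 123 and 125 CPM at 0.5 µg/ml, so that only the lower dose stood apart from control. The log2 fold change of Sc5d was 0.27 at 0.1 µg/ml (edgeR adjusted p = 0.00110) and 0.01 at 0.5 µg/ml (edgeR adjusted p = 0.783).

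Cyp51, the lanosterol demethylase, and Nsdhl, the sterol dehydrogenase, were not called at 0.5 µg/ml, with log2 fold changes of 0.09 and −0.11 (edgeR adjusted p = 0.112 and 0.107). Nsdhl passed the threshold as lower under 6 of 15 alternatives. Fdft1, squalene synthase, was called higher, with 175 and 183 CPM at 0.5 µg/ml against 161 and 162 CPM in control (log2 fold change 0.15, edgeR adjusted p = 0.0160). On the TPM scale its log2 difference was −0.07 and was not called, so its direction depends on the scale, although the counts above and below include it among the higher genes. Fdft1 shares 774 exon bases (18.3%) with Ctsb on the opposite strand, and no source used here says whether reads were counted by strand.

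**Figure D2:**
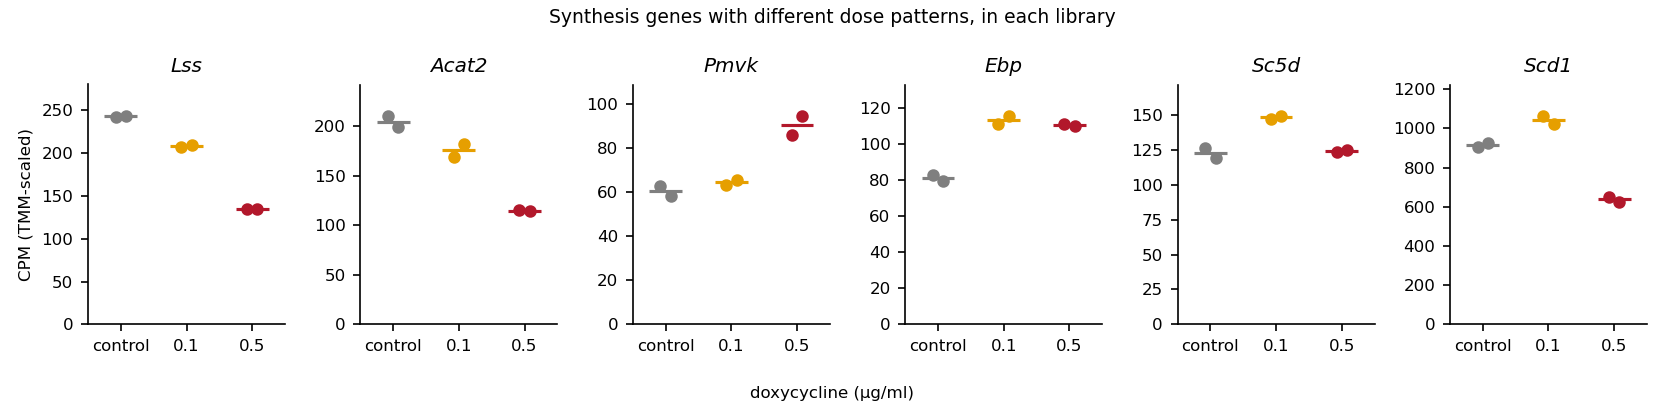
Level of Lss, Acat2, Pmvk, Ebp, Sc5d and Scd1 in each library (CPM, scaled by TMM, linear axes starting at 0), for control, 0.1 and 0.5 µg/ml doxycycline. Points are libraries and bars are the means of 2. Lss and Acat2 were ordered downward by dose, Pmvk stood apart at 0.5 µg/ml, Ebp at both doses, and Sc5d and Scd1 were highest at 0.1 µg/ml.

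All 5 sterol-sensing regulators were called at 0.5 µg/ml, 3 higher and 2 lower, where 67.5% of all tested genes were called. Srebf1 (ENSMUSG00000020538) stood at 219 and 212 CPM in control, 191 and 190.0 CPM at 0.1 µg/ml and 153 and 157 CPM at 0.5 µg/ml, without overlap between the groups (log2 fold change at 0.5 µg/ml −0.47 ± 0.04 SE, edgeR adjusted p = 4.11e-06). Srebf2 had 364 and 358 CPM at 0.5 µg/ml against 339 and 324 CPM in control, a log2 fold change of 0.12 ± 0.04 (SE, edgeR adjusted p = 0.0195) that was lost under 8 of 15 alternatives. Per length, Srebf1 over Srebf2 was 1.10 and 1.12 in control, then 1.01 and 0.938 at the lower dose and 0.691 and 0.671 at the higher dose.

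The Insig pair also went in opposite directions. Insig1, itself a target of SREBP, had 321 and 336 CPM at 0.5 µg/ml against 452 and 424 CPM in control (log2 fold change −0.41, edgeR adjusted p = 2.96e-05). Insig2, the form that is less dependent on SREBP, had 28.7 and 28.8 CPM at 0.5 µg/ml against 24.2 and 24.8 CPM in control (log2 fold change 0.23, edgeR adjusted p = 0.00368). Scap, the escort, had 99.0 and 95.9 CPM at 0.5 µg/ml against 76.7 and 72.6 CPM in control (log2 fold change 0.38, edgeR adjusted p = 4.89e-05). The calls of Insig2 and Scap were lost in the fits on TPM, where the differences kept their sign and were as small as 0.05 and 0.23. Insig1 over Insig2 in TPM was 6.63 and 7.01 in control, then 6.31 and 6.71 at the lower dose and 4.38 and 4.87 at the higher dose.

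Sterol transport held the largest changes of the 35 genes, and all 5 of its genes were lower at 0.5 µg/ml. Of all tested genes, 33.1% were called lower. Soat2 (ENSMUSG00000023045), the intestinal and hepatic enzyme that esterifies cholesterol, stood at 36.3 and 45.4 CPM in control, 39.3 and 34.8 CPM at 0.1 µg/ml and 12.0 and 12.8 CPM at 0.5 µg/ml. It was 3.29-fold lower at 0.5 µg/ml (log2 fold change −1.72 ± 0.11 SE, edgeR adjusted p = 4.35e-07). Abcg8 (ENSMUSG00000024254) stood at 100.4 and 101 CPM in control, 104 and 94.4 CPM at 0.1 µg/ml and 32.8 and 34.6 CPM at 0.5 µg/ml, a 2.99-fold lower level at the higher dose (log2 fold change −1.58 ± 0.06 SE, edgeR adjusted p = 7.66e-09). In both genes the 0.1 µg/ml and control libraries overlapped and the 0.5 µg/ml libraries lay far below.

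Abcg5 (ENSMUSG00000040505), the partner of Abcg8 in the sterol pump, stood at 87.7 and 94.1 CPM in control, 111 and 101 CPM at 0.1 µg/ml and 36.3 and 36.7 CPM at 0.5 µg/ml. The log2 fold change was −1.32 ± 0.06 at 0.5 µg/ml and 0.22 ± 0.06 at 0.1 µg/ml (SE, edgeR adjusted p = 3.38e-08 and 0.0120), and the call at the lower dose was lost under 5 of 15 alternatives. Abcg5 and Abcg8 overlap by 82 exon bases on opposite strands, 3.02% and 2.19% of their exon bases. Npc1l1 (ENSMUSG00000020447), the uptake transporter of the brush border, stood at 149 and 155.5 CPM in control, 184 and 154 CPM at 0.1 µg/ml and 67.5 and 63.0 CPM at 0.5 µg/ml (log2 fold change −1.22 ± 0.08 SE, edgeR adjusted p = 5.02e-07). Stard4, a soluble carrier that moves cholesterol between membranes, was lower by less, at 276 and 265 CPM at 0.5 µg/ml against 326 and 320.1 CPM in control (log2 fold change −0.26, edgeR adjusted p = 2.73e-04).

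**Figure D3:**
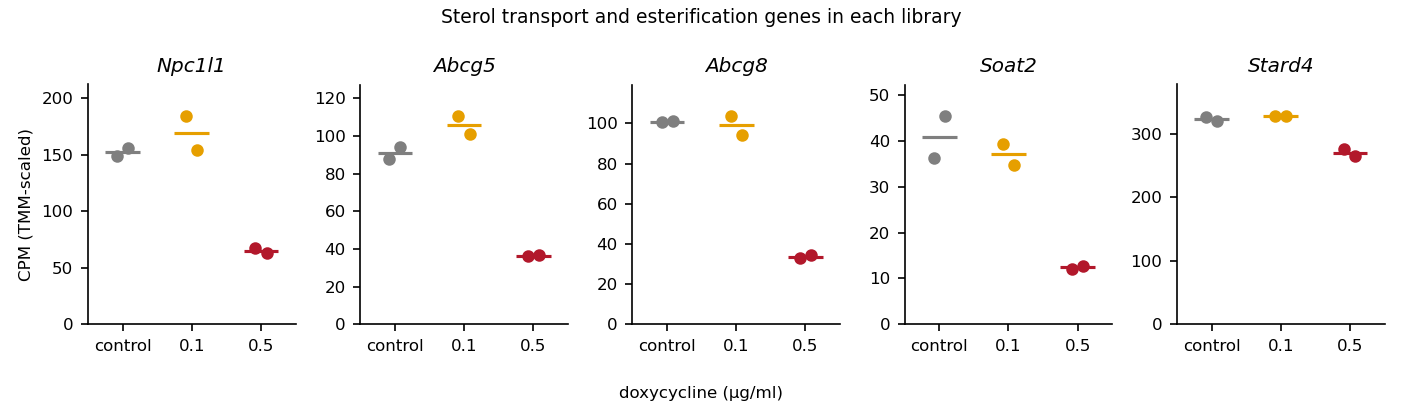
Level of Npc1l1, Abcg5, Abcg8, Soat2 and Stard4 in each library (CPM, scaled by TMM, linear axes starting at 0), for control, 0.1 and 0.5 µg/ml doxycycline. Points are libraries and bars are the means of 2. In each panel both 0.5 µg/ml libraries lie below the other 4. The 0.1 µg/ml libraries overlap control for Npc1l1, Abcg8 and Soat2 and lie above it for Abcg5. For Stard4 they lie slightly above control, a difference that was not called (log2 fold change 0.02, edgeR adjusted p = 0.698).

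The 4 transport genes are expressed in absorptive cells, and the markers of those cells moved with them in part. Summed TPM of Npc1l1, Abcg5, Abcg8 and Soat2 was 149 and 166 in control, then 173 and 156 at the lower dose and 54.4 and 56.6 at the higher dose. The summed TPM of 15 enterocyte markers was 2121 and 2758 in control, then 3669 and 2866 at the lower dose and 1414 and 1488 at the higher dose. At 0.5 µg/ml the 4-gene sum was 0.352 of the control mean and the marker sum was 0.595 of it. Fabp1 was the largest part of the marker sum, with a mean of 1089 TPM in control and 515 TPM at 0.5 µg/ml. The median log2 fold change was −1.45 for the 4 genes and −0.41 for the 15 markers. Of those 15 markers, 8 were lower, 1 was higher and 6 were not called at 0.5 µg/ml, so that 60% were called where 67.5% of all tested genes were. At 0.1 µg/ml 10 were higher and 1 lower, 73.3% called against 34.6% of all tested genes. Other epithelial lists stood further from control: at 0.5 µg/ml the summed TPM was 0.102 of the control mean for Paneth, 0.171 for goblet, 0.0811 for enteroendocrine and 0.190 for crypt base stem cell markers. Called lower were 6 of 6 Paneth, 5 of 7 goblet, 7 of 7 enteroendocrine and 7 of 8 crypt base markers, beside 33.1% of all tested genes. Clca1 of the goblet list and Ascl2 of the crypt base list were called higher, and Zg16 of the goblet list was not called. The tuft cell list summed to 204 and 209 TPM at 0.5 µg/ml, against 1.62 and 2.69 TPM in control. Avil held most of that sum, at 197 and 202 TPM, and of the 4 tuft markers tested 3 were higher and 1 was lower. The 10 proliferation markers summed to 0.854 of the control mean, with 2 higher, 6 lower and 2 not called. Called shares of the tested tuft and proliferation markers were 100% and 80%, beside 67.5% of all tested genes. The part of any of these cells in the values of the 35 genes was not tested.

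The fatty acid arm had 2 genes higher, 3 lower and 2 not called at 0.5 µg/ml, 71.4% called against 67.5% of all tested genes. The largest members by level were the stearoyl-CoA desaturases, which put the first double bond into saturated chains. Scd1 (ENSMUSG00000037071) stood at 903 and 924 CPM in control, 1064 and 1024 CPM at 0.1 µg/ml and 649 and 626 CPM at 0.5 µg/ml. It was highest at the lower dose, and the groups did not overlap. Its log2 fold change was −0.52 ± 0.04 at 0.5 µg/ml and 0.19 ± 0.04 at 0.1 µg/ml (SE, edgeR adjusted p = 1.71e-06 and 0.00450). Scd2 (ENSMUSG00000025203) stood at 2885 and 2908 CPM in control, 2681 and 2766 CPM at 0.1 µg/ml and 2132 and 2153 CPM at 0.5 µg/ml (log2 fold change at 0.5 µg/ml −0.44 ± 0.03 SE, edgeR adjusted p = 2.48e-06). Scd1 and Scd2 are close paralogs, and their split of shared reads is uncertain. In TPM, Scd2 over Scd1 was 2.60 and 2.39 in control, then 1.98 and 2.05 at the lower dose and 2.80 and 2.83 at the higher dose.

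Elovl6 (ENSMUSG00000041220), which elongates the palmitate that fatty acid synthase makes, rose with dose: 212 and 206 CPM in control, 239 and 243 CPM at 0.1 µg/ml and 289.8 and 277 CPM at 0.5 µg/ml. Its log2 fold change at 0.5 µg/ml was 0.44 ± 0.04 (SE, edgeR adjusted p = 8.13e-06). Acaca, acetyl-CoA carboxylase, the committed step of the arm, had 160.3 and 160.1 CPM at 0.5 µg/ml against 137 and 128 CPM in control (log2 fold change 0.27, edgeR adjusted p = 4.80e-04). Fasn, the synthase, was within 1.08-fold of control at 0.5 µg/ml, with 797 CPM in both libraries against 892 and 832 CPM, and its call (edgeR adjusted p = 0.0410) was lost under 7 of 15 alternatives.

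Acly, which makes cytosolic acetyl-CoA from citrate, was called lower at 0.1 µg/ml and not at 0.5 µg/ml. It had 386 and 370.4 CPM in control, 304 and 338 CPM at 0.1 µg/ml and 365 and 357 CPM at 0.5 µg/ml. Its log2 fold change was −0.24 at 0.1 µg/ml and −0.07 at 0.5 µg/ml (edgeR adjusted p = 0.00681 and 0.280). At 0.5 µg/ml Acly passed the threshold as lower under 3 of 15 alternatives, and at 0.1 µg/ml its call was lost under 1. Between the doses it was called higher at 0.5 µg/ml, and that call was lost under 7 of 15. Acss2, which makes acetyl-CoA from acetate, was not called in any comparison, and its 6 libraries lay between 85.2 and 89.7 CPM.

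Set side by side, the arms had similar medians and mixed directions. At 0.5 µg/ml the sterol arm had 6 genes higher, 8 lower and 4 not called of 18, with a median log2 fold change of −0.08 and a range from −0.85 to 0.58. The fatty acid arm had 2 higher, 3 lower and 2 not called of 7, with a median of −0.07 and a range from −0.52 to 0.44. The median over all tested genes was 0.00, and 67.5% of them were called, against 77.8% and 71.4% of the 2 arms. Under upper-quartile scaling and on TPM both arm medians lay near −0.16 or −0.17. The median over all genes shifted by −0.09 under upper-quartile scaling and by −0.08 and −0.09 in the filtered TPM fits. The unfiltered TPM fit held 28962 genes, against 12737 with a mean TPM of at least 1 in the filtered fits. On log2(TPM + 1), differences of genes under 1 TPM are shrunk. The median over all genes was 0.00 there, and is no baseline for the arm medians of −0.170 and −0.165. The arms were not tested against each other, since genes are not replicates.

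Summed per length, the sterol arm held 1877 and 1871 TPM in control, 1848 and 1949 TPM at 0.1 µg/ml and 1640 and 1727 TPM at 0.5 µg/ml. The fatty acid arm held 1231 and 1285 TPM in control, 1189 and 1236 TPM at 0.1 µg/ml and 925 and 965 TPM at 0.5 µg/ml. At 0.5 µg/ml the sums were thus 0.898 and 0.751 of the control means. Both 0.5 µg/ml libraries lay below both control libraries in each arm. The larger drop of the fatty acid sum was that of Scd1 and Scd2, 586 and 611 TPM at 0.5 µg/ml against 871 and 928 TPM in control. The other 5 genes of the arm summed to 338 and 353 TPM at 0.5 µg/ml and 360.2 and 357 TPM in control, 0.964 of the control mean.

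**Figure D4:**
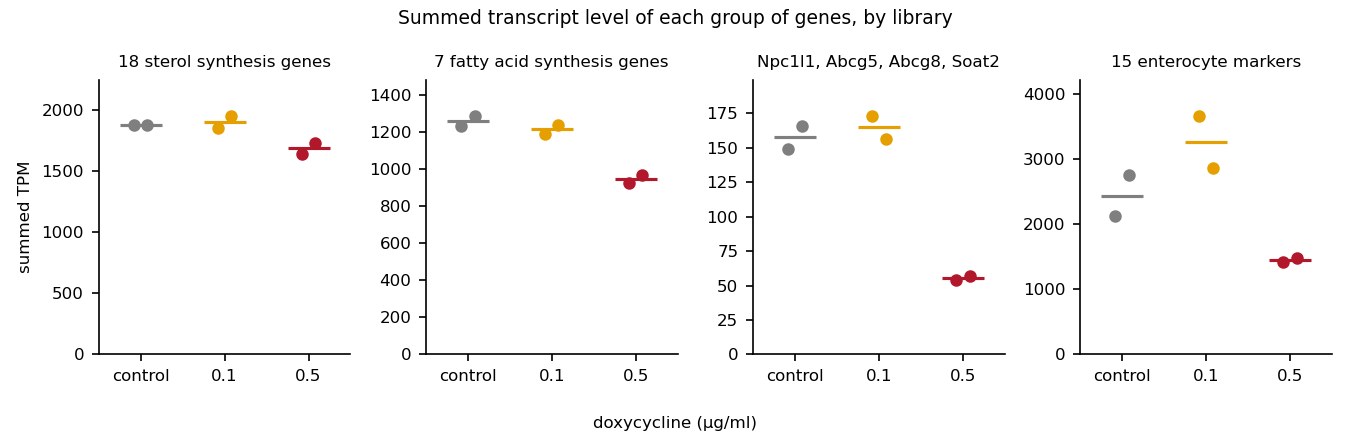
Summed TPM in each library for the sterol arm (18 genes), the fatty acid arm (7 genes), Npc1l1 with Abcg5, Abcg8 and Soat2, and 15 enterocyte markers, for control, 0.1 and 0.5 µg/ml doxycycline. Points are libraries and bars are the means of 2, with axes starting at 0. The 0.5 µg/ml mean was 0.898 of control for the sterol arm, 0.751 for the fatty acid arm, 0.352 for the transport genes and 0.595 for the markers. Fabp1 was the largest part of the marker sum.

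In levels per length, Scd2 was the most abundant of the 35 genes in control, at 642 ± 17 TPM, followed by Fdps at 326 ± 3.7 TPM, Scd1 at 258 ± 23 TPM and Insig1 at 224 ± 3.8 TPM (SD, n = 2). The lowest were Hsd17b7 at 22.0 ± 0.50 TPM and Soat2 at 23.6 ± 4.2 TPM, which did not differ beyond their spread. At 0.5 µg/ml Soat2 was the lowest of all at 6.69 ± 0.40 TPM, and Scd2 was still the highest at 442 ± 14 TPM.

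**Figure D5:**
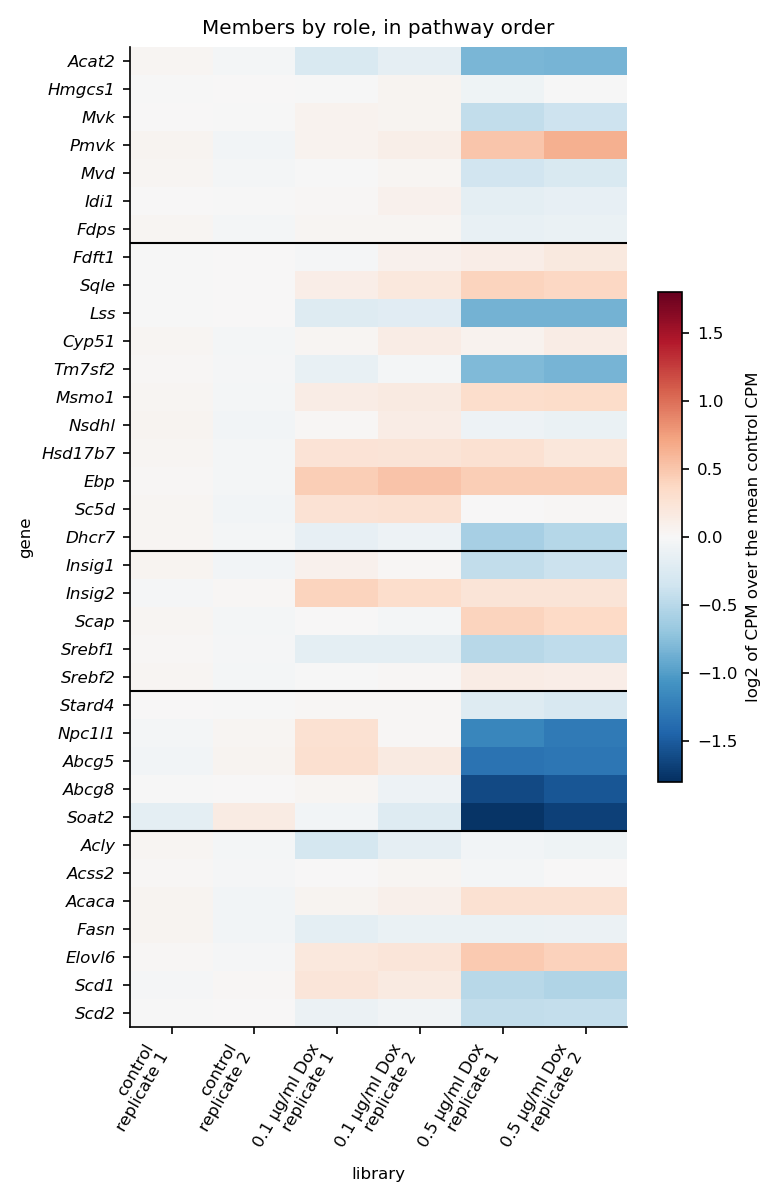
Level of each of the 35 genes in each library, as log2 of its CPM over the mean control CPM, in the order of the pathway. Columns are the libraries of control, 0.1 and 0.5 µg/ml doxycycline, and the colour scale gives the log2 difference. The lowest cells are those of Npc1l1, Abcg5, Abcg8 and Soat2 at 0.5 µg/ml, and within each gene the 2 libraries of a group show like colours.

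At 0.1 µg/ml against control the members moved less. Of the 35 genes, 9 were higher, 5 were lower and 21 were not called, so that 40% were called where 34.6% of all tested genes were called, 20.8% higher and 13.8% lower. No member changed 2-fold, against 9.65% of all tested genes, and the median absolute log2 fold change was 0.09. Those higher were Ebp (0.48), Insig2 (0.36), Sc5d (0.27), Hsd17b7 (0.24), Abcg5 (0.22), Elovl6 (0.20), Scd1 (0.19), Sqle (0.15) and Msmo1 (0.15), as log2 fold changes. Those lower were Acly (−0.24), Acat2 (−0.22), Lss (−0.22), Srebf1 (−0.18) and Fasn (−0.15). The sterol arm had 5 higher, 2 lower and 11 not called, and the fatty acid arm 2 higher, 2 lower and 3 not called. On TPM the split was 3 higher and 4 lower, beside 1851 higher and 1461 lower of all genes. Of the 14 calls only those of Sc5d and Srebf1 held under all 15 alternatives. Insig2 lost its call in the 3 fits on TPM, with a log2 difference as small as 0.07.

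Between the doses, at 0.5 against 0.1 µg/ml, 9 genes were higher, 19 were lower and 7 were not called. The called share was 80%, against 58.9% of all tested genes, 29.8% higher and 29.1% lower. On TPM the split was 4 higher and 19 lower, beside 2919 higher and 4121 lower of all genes. The 4 transport genes were lower by between 1.38 and 1.58 on the log2 scale, Tm7sf2 by 0.73, Scd1 by 0.71, Lss by 0.63 and Acat2 by 0.61. Pmvk, at 0.49, and Scap, at 0.39, were the highest of those that rose. Of the 15 enterocyte markers, 14 were lower and 1 was higher between the doses, 100% called against 58.9% of all tested genes. Their median log2 fold change was −1.36, beside −1.55 for the 4 transport genes. The part of absorptive cells in this difference between doses was not tested. This comparison tests directly that Scd1 and Abcg5, higher at 0.1 µg/ml and lower at 0.5 µg/ml than control, differed between the doses, with log2 fold changes of −0.71 and −1.54 (edgeR adjusted p = 3.71e-07 and 3.48e-08). Sc5d fell by 0.26 (edgeR adjusted p = 6.71e-04). For Ebp and Hsd17b7 the differences between doses were −0.04 ± 0.04 and 0.00 ± 0.05 on the log2 scale (SE, edgeR adjusted p = 0.510 and 0.964). The 3 comparisons share libraries, so their values are given side by side and not correlated.

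Neighbouring genes of the same metabolism gave the following counts at 0.5 µg/ml against control, to be read beside the 67.5% of all tested genes that were called. Of 12 tested genes of mevalonate branches and sterol cofactors, 1 was higher (Cyb5b, a cytochrome b5, at a log2 fold change of 0.33) and 7 were lower, 66.7% called. Pdss1, a subunit of the enzyme that makes the ubiquinone tail, stood at 107 and 105 CPM in control, 55.3 and 59.5 CPM at 0.1 µg/ml and 30.6 and 32.1 CPM at 0.5 µg/ml (log2 fold change −1.76, edgeR adjusted p = 2.36e-09). Lbr, a nuclear envelope protein that is also a sterol reductase, and Erg28, a scaffold of the sterol demethylation complex, were lower by 0.76 and 0.45 on the log2 scale. Of 10 genes of SREBP processing and sterol-regulated degradation, 2 were higher (Rnf139 at 0.35 and Sar1a at 0.26) and 7 were lower, 90% called. Erlin1, which acts in sterol-regulated degradation in the endoplasmic reticulum, and Sec24d, a coat protein of the vesicles that leave it, fell by 0.96 and 0.88.

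Of 15 other genes of sterol trafficking, efflux and the LXR nuclear receptors, 8 were lower and 1 was higher, 60% called. Nr1h3, which encodes LXR alpha, had 10.4 and 9.96 CPM at 0.5 µg/ml against 22.2 and 21.6 CPM in control (log2 fold change −1.11, edgeR adjusted p = 1.00e-06). Abca1, a cholesterol efflux pump and LXR target, was the higher gene, at 8.43 and 8.34 CPM against 4.34 and 4.97 CPM (log2 fold change 0.85, edgeR adjusted p = 4.14e-04). Abcg5, Abcg8 and Srebf1, also known as LXR targets, were lower, as given above. Gramd1a, which moves sterols from the plasma membrane, and Lipa, the lysosomal lipase, fell by 2.46 and 0.88 on the log2 scale.

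Among 19 other genes of fatty acid synthesis, elongation and desaturation, 6 were higher and 10 lower, 84.2% called. The malic enzyme Me1, a source of NADPH for lipid synthesis, stood at 58.8 and 64.6 CPM in control, 176 and 172 CPM at 0.1 µg/ml and 412 and 364 CPM at 0.5 µg/ml. This was a log2 fold change of 2.65 ± 0.07 at 0.5 µg/ml (SE, edgeR adjusted p = 9.04e-10), beyond that of any of the 35 genes in either direction. The polyunsaturated fatty acid desaturases Fads1 and Fads2 were ordered downward by dose. Fads2 stood at 468 CPM in both control libraries, 316 and 339 CPM at 0.1 µg/ml and 151 and 143 CPM at 0.5 µg/ml (log2 fold change −1.67, edgeR adjusted p = 1.73e-09), and Fads1 fell by 1.54 (edgeR adjusted p = 4.12e-09). The largest fitted change of the list was that of Elovl4, an elongase of very long chains, named after its values were seen. It had 1.19 and 1.38 CPM at 0.5 µg/ml against 0.0203 and 0.0199 CPM in control. Each control library held 1 rounded count of it, so no fold is given.

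In fatty acid activation and triglyceride synthesis, 3 of 14 genes were higher (Acsl1 at 1.48, Agpat2 at 0.93 and Acsl4 at 0.37 on the log2 scale) and 8 were lower, 78.6% called. Gpam, the first acyltransferase of triglyceride synthesis, fell by 1.57 and Plin2, which coats lipid droplets, by 0.88. In fatty acid oxidation and ketogenesis, 13 of 23 genes were lower and 4 were higher (Ppard, Cpt1a and Acadm at 0.17 each and Etfdh at 0.12), 73.9% called. Acaa2 and Hadh, of mitochondrial oxidation, and Ehhadh, of peroxisomal oxidation, fell by 1.08, 0.99 and 1.23. The medians of these 6 lists lay between −0.39 and −0.21 on the log2 scale, against −0.11 for the 35 genes and 0.00 for all tested genes.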

How the data were processed

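Poly-A RNA was read as 100 bp pairs from stranded libraries, per the labels' protocols. RSEM 1.3.3 and STAR 2.7.3a are in the submitters' processing notes, beside Trim Galore and FastQC, and so are 2 builds, mm10 and GRCm39, without a role, so no coordinate of the tables is given. The authors deposited expected counts (estimated read counts of genes) made with RSEM, and a second table of TPM, which carries no depth. Symbols came from GENCODE M21 and matched 52083 of 55416 identifiers.

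Expected counts were rounded, filtered with filterByExpr and scaled by TMM. A quasi-likelihood model of the 3 group means was fitted to all 6 libraries with edgeR 4.0.16 (R 4.3.3), leaving 3 residual degrees of freedom. With 2 against 2 libraries an exact test could not go below p = 0.333. Alternatives used DESeq2 1.42.0, limma 3.58.1 on log2(TPM + 1) and others listed in the closing section. Replicates differed beyond sampling noise, with a chi-square per degree of freedom of 7.57 to 8.60. RSEM divides shared reads, so paralogs are uncertain. Promoter windows are RefSeq entries on GRCm38.p6, and exon overlaps are from GENCODE M21.

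The members and lists were chosen with earlier results of these data known. All 35 members are named, and of each neighbouring list the 3 genes of smallest p at 0.5 µg/ml against control, with counts of 5 or fewer spelled out. Of the genes that this rule names, 1 is not reported here. Single marker genes were named after their values were seen. Standard errors of log2 fold changes come from the F statistic of the test.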

Additional observations from a re-analysis of the deposited data

How the results depend on the processing

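Over 15 alternatives at 0.5 µg/ml against control, 23 of the 29 called members kept direction and call, among them the 4 transport genes, Lss, Acat2, Tm7sf2, Dhcr7, Scd1 and Scd2. The exceptions were Fdps, Fdft1, Insig2, Scap, Srebf2 and Fasn. At 0.1 µg/ml 2 of 14 calls held under all 15, and between the doses 20 of 28. The cause of the changes below was not tested; TPM fits use other values, and leaving out a library leaves fewer samples, the remaining library of its group being assumed to vary like the others. Each member had at least 525 expected counts in every library, and the part of depth in the calls was not tested.

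With limma on log2(TPM + 1), log2(TPM + 0.1) and log2(TPM + 1) without a filter, members called higher at 0.5 µg/ml against control numbered 7, 7 and 7 in place of 11, and Fdft1 turned to −0.066, −0.066 and −0.066. The same fits gave sterol arm medians of −0.170, −0.172 and −0.170 and fatty acid arm medians of −0.165, −0.166 and −0.165. Upper-quartile scaling gave −0.164 and −0.157 for the 2 arms. All genes called higher at 0.5 µg/ml numbered 3565 and 3563 with the filter, in place of 5839.

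At 0.1 µg/ml against control, the 3 TPM fits called 1851, 1889 and 1484 genes higher, in place of 3531, and 1461, 1412 and 1036 lower, in place of 2350. Members called higher were 3, 3 and 1 in place of 9, and members called lower were 1 in the unfiltered fit in place of 5. Sterol arm genes called higher were 2, 2 and 1 in place of 5, and those lower were 0 in the unfiltered limma fit (4 at an unadjusted p under 0.05, and 2 called by DESeq2), in place of 2. Fatty acid arm genes called were 1, 1 and 0 higher and 1, 1 and 0 lower, in place of 2 and 2; in the unfiltered limma fit 2 higher and 3 lower had an unadjusted p under 0.05, and DESeq2 called 2 and 3. The fatty acid arm median was −0.011, −0.011 and −0.011 in these fits and −0.015 with upper-quartile scaling, in place of 0.024, and the sterol arm median was 0.016 with that scaling, in place of 0.055.

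Between the doses, the filtered TPM fits called 2919 and 2894 genes higher, in place of 5060. The 3 TPM fits called 4, 4 and 3 members higher in place of 9, 2, 2 and 2 sterol arm genes in place of 4, and 1, 1 and 1 fatty acid arm genes in place of 3. The sterol arm median was −0.233, −0.235 and −0.233 in these fits and −0.221 with upper-quartile scaling, in place of −0.171. The fatty acid arm median, 0.035, was 0.066 with RLE size factors, 0.066 with DESeq2 and −0.015 with upper-quartile scaling.

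Leaving out each of the 6 libraries in turn gave, at 0.5 µg/ml against control, sterol arm medians from −0.126 to −0.053 and fatty acid arm medians from −0.127 to −0.039. The lowest of each came without the second control library. At 0.1 µg/ml it gave 2352 to 2963 genes higher and 1448 to 2291 lower, the fewest without the first 0.1 µg/ml library, which is the deepest. Members called were 6 to 8 higher and 3 to 6 lower, with 3 to 4 higher and 1 to 3 lower in the sterol arm and 1 to 2 higher and 1 to 3 lower in the fatty acid arm. The medians there ran from 0.0067 to 0.064 and from −0.017 to 0.029. With the replicate number as a block, 11 members were higher and 17 lower at 0.5 µg/ml, the call of Fasn being lost. Same-numbered deviations correlated at 0.114, −0.110 and −0.017 across genes in the 3 pairs of groups. With 1 difference in each group, these values cannot show whether same-numbered libraries shared a mouse or culture.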
